A study of Mus musculus with 20 samples.

Results

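The 9 genes described here are used to mark the progenitors and the stroma of fat: *Pdgfra*, *Pdgfrb*, *Dpp4*, *Pi16*, *Ly6a*, *Cd34*, *Icam1*, *F3* and *Zfp423*. They were chosen by name, and they are 9 of the 36611 genes with a transcript in the deposited table. The expression of a gene is the sum over its transcripts of TPM, a level scaled to the library and corrected for transcript length. RNA came from subcutaneous inguinal white adipose tissue (iWAT) of female C57BL/6 mice, 6 months of age, in 20 samples that fall into 4 groups of 5. Controls, labelled wild type, were littermates that carried the floxed *Tmem120a* alleles without Cre. *Ad-Tmem120a*-/- mice, called knockout below, carried the same alleles with *Adipoq*-Cre, which acts in adipocytes, so that the progenitors and stromal cells of the same tissue are not its target. Mice of each genotype ate, for 15 weeks, food with little fat (LFD, with 10.5% fat) or much fat (HFD, with 58% fat).

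White fat holds, besides its adipocytes, a vascular stroma in which new adipocytes arise. Progenitors carry the receptor PDGFRα, and single-cell work has divided them into interstitial cells with DPP4 and PI16, committed preadipocytes with ICAM1, and cells with tissue factor (F3, also called CD142) that hold back adipogenesis. LY6A (Sca-1) and CD34 are surface antigens used to sort progenitors, and both are also found on endothelium. PDGFRβ marks mural cells, the pericytes and smooth muscle of vessels, and ZFP423 is a zinc finger transcription factor of committed preadipocytes and of mural cells.

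The libraries held between 54605101 and 92387737 estimated counts, and the 9 genes had a mean of 1113 (*Icam1*) to 18880 (*Cd34*) estimated counts per library. The lowest value was 316 estimated counts, for *Icam1* in knockout HFD replicate 18. *Tmem120a* lay at 57.9 to 132 TPM in control and 21.5 to 74.0 TPM in knockout libraries on LFD, and at 83.3 to 196 TPM and 29.5 to 89.7 TPM on HFD, so that the mean was lower in knockout and the ranges overlapped on both diets. The tissue label matched its markers: the summed level of 14 adipocyte genes lay between 6050 and 12440 TPM, and that of 20 stromal genes between 3297 and 6564 TPM. Other tissue varied. The sum of 14 skeletal muscle genes lay between 9.09 and 3897 TPM, that of 13 lymphocyte genes between 13.3 and 247 TPM, and that of 10 epithelial genes between 97.0 and 384 TPM. Control HFD replicate 15 had the lowest epithelial sum. The paper describes myogenic genes as derepressed in knockout iWAT. Whether the muscle RNA here came from muscle tissue or from fat cells was not tested. In tissue RNA, fewer cells of a type and less RNA per cell cannot be told apart.

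*Ly6a* had the highest level of the 9 genes, with a mean of 293 ± 57.8 TPM (SD, n = 20). *Cd34* followed at 140 ± 39.1 TPM, and both were above every other member in each of the 20 libraries. *F3* (43.5 ± 13.1 TPM), *Pdgfra* (33.4 ± 6.01 TPM), *Dpp4* (27.4 ± 4.78 TPM) and *Pi16* (24.0 ± 9.10 TPM) came next. Neighbours in this middle range did not separate: *F3* was above *Pdgfra* in 16 of 20 libraries, *Pdgfra* above *Dpp4* in 16 and *Dpp4* above *Pi16* in 14. *Zfp423* (12.4 ± 3.67 TPM), *Pdgfrb* (7.24 ± 1.87 TPM) and *Icam1* (5.01 ± 1.78 TPM) were the lowest, and *Pdgfrb* was above *Icam1* in 16 of 20 libraries.

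**Figure D1:**
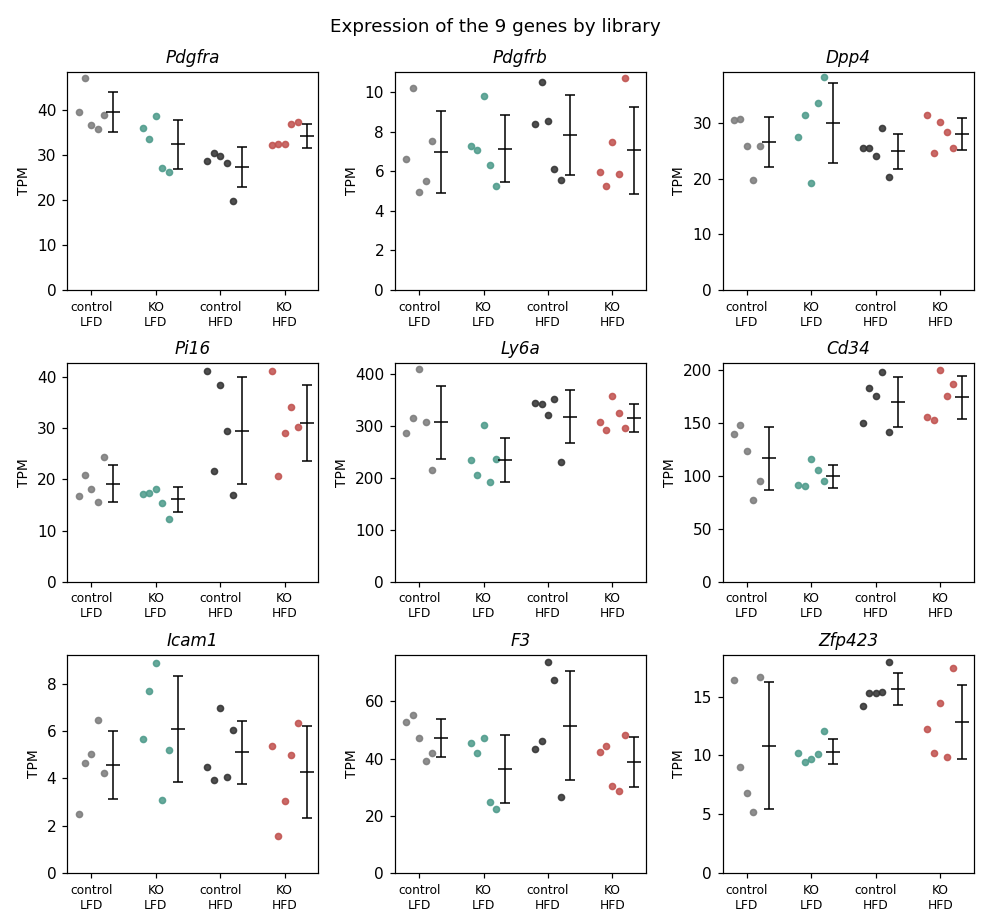
Level of each of the 9 genes in TPM (vertical axis, from 0) in the 4 groups of 5 libraries (KO, knockout; each gene has its own scale); each point is a library, and the line with whiskers is the group mean ± SD. *Pdgfra* sat lowest in control HFD, at 19.7 to 30.4 TPM, and in knockout each library of *Pi16* and *Cd34* was higher on HFD than on LFD, whereas in control the diets overlapped for both.

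Diet moved 3 of the 9 genes, and the genes differed by genotype in which of them passed the test. *Pdgfra* fell on HFD in control mice, and *Pi16* and *Cd34* rose on HFD in knockout mice (edgeR quasi-likelihood test, adjusted p under 0.1). Thus 1 of 9 members was called in control, beside 9.32% of 15311 genes tested (4.42% higher and 4.9% lower on HFD), and 2 of 9 in knockout, beside 9.4% of 15705 genes (4.55% higher and 4.85% lower). With 9 members, these counts are near what the share of all genes gives. The same 1 and 2 members had ranges of TPM that did not overlap between diets, beside 9.78% and 7.95% of all genes. On the log2(TPM + 1) scale the median gene was higher by 0.13 on HFD in control and by 0.08 in knockout, whereas the fitted medians were -0.04 and 0.00. Differences in TPM between diets are therefore to be read against these shifts.

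*Pdgfra* (ENSMUSG00000029231, chr5:75548316-75594229, plus strand, NCBIM37/mm9) encodes the receptor for PDGF-A and PDGF-C on progenitors and fibroblasts. It lay at 39.6, 47.2, 36.7, 35.7 and 39.0 TPM in control LFD and at 28.8, 30.4, 29.8, 28.2 and 19.7 TPM in control HFD. In knockout it lay at 36.1, 33.7, 38.7, 27.2 and 26.4 TPM on LFD and at 32.2, 32.5, 32.4, 36.9 and 37.4 TPM on HFD. Every control library was lower on HFD than every control library on LFD, whereas the knockout libraries of both diets overlapped. Muscle genes moved beside the fall in control, where 11 of 14 were called lower and none higher on HFD, while in knockout none was called. Their sum lay at 54.2, 10.8, 267, 144 and 3897 TPM in control LFD. In control HFD it lay between 9.09 and 61.4 TPM, so that the ranges overlapped. Their part in the result was not tested.

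In control mice *Pdgfra* fell by 0.72 ± 0.13 on the log2 scale (SE, to 0.606 times, edgeR adjusted p = 0.00911, exact permutation p = 0.00794, two-sided, the smallest that 5 against 5 libraries allow). In knockout mice the change was 0.01 ± 0.12 (edgeR adjusted p = 0.982). The genotype difference also had opposite signs on the diets. On HFD all 5 knockout libraries were above all 5 controls, with means of 34.3 ± 2.63 and 27.4 ± 4.36 TPM (SD, n = 5 each, exact permutation p = 0.00794). On LFD the knockout mean was lower, at 32.4 ± 5.46 against 39.6 ± 4.5 TPM (exact permutation p = 0.0476), the ranges overlapped, and the p lay between 0.0159 and 0.119 with single libraries left out, under 0.05 in 2 of 10 cases. The comparisons of diet and of genotype share libraries, so that they are not independent of each other.

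Across all genes neither genotype difference of *Pdgfra* passed (edgeR log2 fold change 0.33 ± 0.12, adjusted p = 0.987 on HFD, and -0.39 ± 0.12, adjusted p = 0.929 on LFD). The difference between both genotype effects was 0.617 on the log2(TPM + 1) scale (exact permutation of genotypes within diets, p = 0.000378). In edgeR it was 0.71 ± 0.16 with an unadjusted p of 0.000287 and an adjusted p of 0.976, since 0 of 15574 genes were called and 560 had an unadjusted p under 0.05. DESeq2 on the same counts called 14 genes with *Pdgfra* among them (adjusted p = 0.0207), and limma called 0. The call across all genes thus rests on the tool. Control HFD replicate 15 had the lowest *Pdgfra* level of all libraries, and without it the difference was 0.508 (exact permutation p = 0.000661). The genotype difference on HFD was then 0.216 (exact permutation p = 0.00794), and the fall with diet in control was -0.64.

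**Figure D2:**
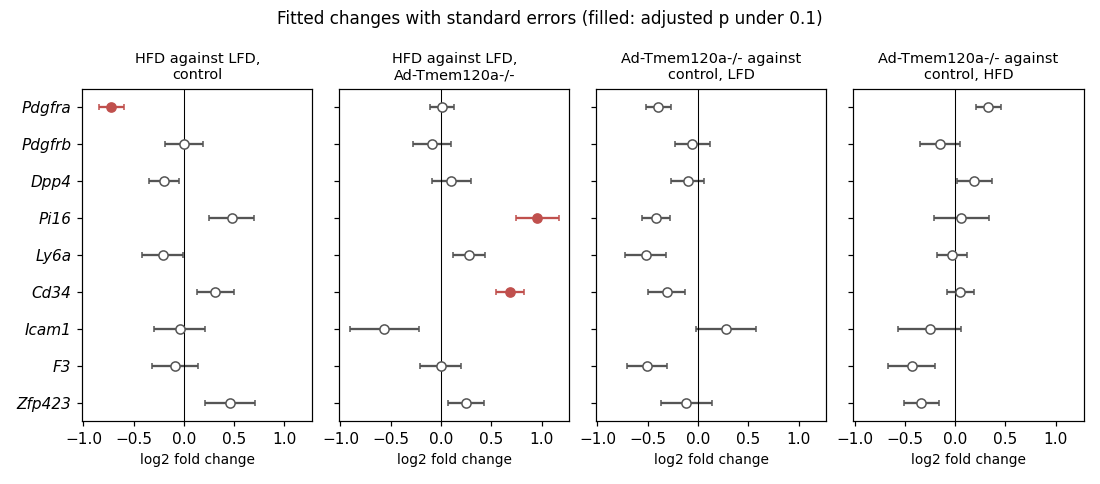
Fitted log2 fold change (horizontal axis) with its standard error for the 9 genes in 4 comparisons of 5 against 5 libraries; filled points have an adjusted p under 0.1. Of these points *Pdgfra* in control (-0.72) and *Pi16* (0.96) and *Cd34* (0.69) in knockout are filled, in comparisons of diet, and *Pdgfra* lies on opposite sides of 0 in the genotype comparisons.

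*Pdgfrb* (ENSMUSG00000024620, chromosome 18, plus strand) encodes the receptor for PDGF-B of mural cells. Its level was 4.96 to 10.2 TPM in control LFD, 5.24 to 9.80 TPM in knockout LFD, 5.57 to 10.5 TPM in control HFD and 5.23 to 10.7 TPM in knockout HFD. All 4 ranges overlapped over most of their length, and the smallest exact permutation p of the 5 comparisons was 0.468.

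Of 14 other genes of PDGF signalling, which covers ligands, receptor partners and the first enzymes downstream, 13 were tested. In control 1 was called higher and 1 lower with diet, and in knockout 1 higher and 1 lower. The median log2 fold changes were 0.23 and 0.06. *Pdgfd*, a ligand of PDGFRβ, rose in knockout from 11.1 ± 1.22 to 20.2 ± 2.48 TPM (log2 fold change 0.69 ± 0.13, edgeR adjusted p = 0.0128), and in control it went from 12.6 ± 2.83 to 20.7 ± 2.88 TPM (0.51 ± 0.17, adjusted p = 0.101). *Cbl*, an ubiquitin ligase that targets activated receptors for breakdown, fell in both genotypes (-0.55 ± 0.16, edgeR adjusted p = 0.0709 in control, and -0.90 ± 0.15, adjusted p = 0.00563 in knockout). *Plcg1*, a phospholipase bound by the receptors, rose in control (0.34 ± 0.11, edgeR adjusted p = 0.0885). The most abundant genes of the list were *Pik3r1*, the regulatory subunit of PI3-kinase, and the co-receptor *Nrp1*, with means of 116 and 68.7 TPM. They had log2 fold changes of 0.07 and 0.26 in control and 0.05 and 0.31 in knockout, with no call.

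*Pi16* (ENSMUSG00000024011, chr17:29455822-29466358, plus strand) encodes a CAP domain protein of interstitial progenitors. It lay at 16.8, 20.9, 18.2, 15.5 and 24.5 TPM in control LFD and at 41.3, 21.6, 38.5, 29.5 and 16.9 TPM in control HFD. Knockout libraries held 17.3, 17.4, 18.2, 15.5 and 12.2 TPM on LFD and 41.2, 20.7, 29.1, 34.2 and 30.3 TPM on HFD. In knockout the diets did not overlap, and in control 2 of the 5 HFD libraries lay within the LFD range.

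In knockout *Pi16* rose 1.94-fold with diet (log2 fold change 0.96 ± 0.21, edgeR adjusted p = 0.0256, exact permutation p = 0.00794). In control the log2 fold change was 0.47 ± 0.23 (edgeR adjusted p = 0.263, exact permutation p = 0.0873), and without control HFD replicate 15 it was 0.63 with an adjusted p of 0.0962. The change was not shown to differ between genotypes (difference 0.46 ± 0.33, exact permutation p = 0.281). Over both genotypes, a comparison added after the data were seen, *Pi16* rose by 0.72 ± 0.17 (edgeR adjusted p = 0.00456). That comparison called 3 of 9 members, beside 25.2% of all genes.

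*Cd34* (ENSMUSG00000016494, chr1:196765015-196787486, plus strand) encodes a sialomucin of progenitors, endothelium and haematopoietic stem cells. It lay at 140, 148, 123, 77.1 and 95.1 TPM in control LFD and at 150, 183, 175, 199 and 141 TPM in control HFD. Knockout libraries held 91.6, 90.1, 116, 106 and 94.8 TPM on LFD and 156, 153, 200, 176 and 187 TPM on HFD. The knockout diets stood well apart, and in control the highest LFD library was above the lowest HFD library.

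The rise of *Cd34* in knockout was 1.61-fold (log2 fold change 0.69 ± 0.14, edgeR adjusted p = 0.0150, exact permutation p = 0.00794). In control the fit gave 0.31 ± 0.19 (edgeR adjusted p = 0.379). The same libraries on the log2(TPM + 1) scale differed by 0.567 (exact permutation p = 0.0159), which limma called (adjusted p = 0.0889), and after TMM scaling of the TPM by 0.364 (exact permutation p = 0.127). The call in control therefore depends on the scaling. The change was not shown to differ between genotypes (0.35 ± 0.22, exact permutation p = 0.296), and over both genotypes *Cd34* rose by 0.50 ± 0.12 (edgeR adjusted p = 0.00379).

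*Cd34* has 2 annotated transcripts, and they part in the last exon, which is shown here because it sets which form of the protein is made. The full form has a long cytoplasmic tail, and the truncated form ends soon after the membrane. The bases run from the start of the last exon (chr1:196786130-196786315 for Cd34-201 and chr1:196785974-196785988 for Cd34-202, mm9, plus strand) to the stop codon, which is in capitals.
Cd34-201: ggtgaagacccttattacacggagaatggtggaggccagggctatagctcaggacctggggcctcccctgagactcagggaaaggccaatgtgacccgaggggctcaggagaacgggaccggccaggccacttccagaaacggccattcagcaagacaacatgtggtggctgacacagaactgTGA
Cd34-202: gagctggaacctTGA
Cd34-201 keeps 183 coding bases of this exon and Cd34-202 keeps 12. Cd34-202 took between 13.7% and 53.3% of the *Cd34* TPM of a library, with a mean of 26.1%. Its mean share was 25.5 ± 4.67% in control LFD, 30.6 ± 13% in knockout LFD, 21.3 ± 4.80% in control HFD and 26.9 ± 3.31% in knockout HFD (SD, n = 5 each). The highest share was that of 1 knockout LFD library, replicate 9, and the groups overlapped.

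The promoters of *Pi16* and *Cd34*, which rose together in knockout, and of *Pdgfra*, which did not, are shown as the 250 bases before the RefSeq start. They were taken from RefSeq (GRCm38.p6) and matched, each once on its chromosome and without a mismatch, to mm9 at chr17:29455577-29455826, chr1:196764765-196765014 and chr5:75548026-75548275, all on the plus strand. RefSeq promoters were at hand for 7 of the 9 genes. Capitals mark matches on either strand to the TATA box core (TATAAA), the CCAAT box (CCAAT), the GC box (GGGCGG), an AP-1 type element (TGANTCA) or an EBF type element (CCCNNGGG).
Pi16: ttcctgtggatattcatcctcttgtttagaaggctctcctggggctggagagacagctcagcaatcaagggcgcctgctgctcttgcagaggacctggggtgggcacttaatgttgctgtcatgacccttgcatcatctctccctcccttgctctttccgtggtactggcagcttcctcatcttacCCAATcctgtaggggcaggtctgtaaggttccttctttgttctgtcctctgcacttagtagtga
Cd34: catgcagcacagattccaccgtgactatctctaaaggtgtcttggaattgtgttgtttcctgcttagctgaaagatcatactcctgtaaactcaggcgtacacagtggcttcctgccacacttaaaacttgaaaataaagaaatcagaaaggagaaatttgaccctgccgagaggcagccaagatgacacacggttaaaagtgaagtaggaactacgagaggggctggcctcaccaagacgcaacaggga
Pdgfra: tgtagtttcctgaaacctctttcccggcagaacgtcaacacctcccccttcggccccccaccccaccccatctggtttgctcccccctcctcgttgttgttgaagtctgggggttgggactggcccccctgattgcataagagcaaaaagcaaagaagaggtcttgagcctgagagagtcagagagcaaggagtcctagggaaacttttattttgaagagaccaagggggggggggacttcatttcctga
The only match was a CCAAT in *Pi16*, and 33.9% of the 32851 RefSeq promoters hold one in the same window. TATAAA was held by 12.4% of them, GGGCGG by 32.7%, TGANTCA by 6.75% and CCCNNGGG by 11.8%. The windows of *Pi16*, *Cd34* and *Pdgfra* held 52.4%, 46.4% and 54.4% G and C, beside a median of 52.4% over all promoters. A lower share was held by 49.7%, 28.4% and 56.5% of all promoters.

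*Dpp4* (ENSMUSG00000035000, chr2:62168130-62250288, minus strand) encodes the membrane peptidase that marks interstitial progenitors. It did not follow *Pi16*: it lay at 19.7 to 30.8 TPM in control LFD, 19.2 to 38.3 TPM in knockout LFD, 20.3 to 29.1 TPM in control HFD and 24.6 to 31.4 TPM in knockout HFD. No comparison had an exact permutation p under 0.159. Short transcripts added to its level: the retained intron Dpp4-006 of 288 bases took up to 24.0% of the TPM of a library and 1.04% of its counts at most. The coding transcript alone had means of 20.9 ± 3.96, 20.1 ± 3.10, 21.2 ± 2.37 and 24.2 ± 4.84 TPM in the same order of groups.

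*Ly6a* (ENSMUSG00000075602, chr15:74825308-74828064, minus strand) encodes the GPI-anchored antigen Sca-1. It lay at 285, 314, 409, 308 and 215 TPM in control LFD, at 233, 205, 302, 193 and 236 TPM in knockout LFD, at 344, 342, 321, 352 and 229 TPM in control HFD and at 306, 292, 357, 325 and 295 TPM in knockout HFD. The knockout LFD libraries were the lowest group, and they overlapped with each other group. The diet difference in knockout was 0.443 on the log2(TPM + 1) scale (exact permutation p = 0.0238), 0.317 after TMM scaling (exact permutation p = 0.0714) and 0.28 ± 0.16 in edgeR (adjusted p = 0.360). On the unscaled TPM limma called it (adjusted p = 0.0877), so that this call too depends on the scaling. Of the 31-base words of its transcript, 17.4% also occur in coding transcripts of other genes, mostly *Ly6c1*, *Ly6c2* and other *Ly6* genes, so that the split of reads between them is uncertain. The share was at most 1.85% for the other members.

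The lists around these surface genes moved in part. Of 14 other markers of interstitial progenitors 12 were tested. In control 1 fell and none rose with diet, and in knockout 1 rose and 2 fell, with medians of 0.06 and 0.11. *Fn1*, fibronectin, fell in both genotypes (-0.91 ± 0.27, edgeR adjusted p = 0.0735, and -0.76 ± 0.15, adjusted p = 0.0153). The transcription factor *Creb5* fell in knockout (-1.23 ± 0.27, edgeR adjusted p = 0.0242) and *Efhd1* rose there (0.62 ± 0.18, adjusted p = 0.0704). *Cd55* and *Sema3c*, the most abundant genes of the list at 120 and 83.7 TPM, were not called in either genotype.

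Of 20 stromal genes shared by progenitors and fibroblasts, all were tested. In control 4 rose and 2 fell, and in knockout 5 rose and 1 fell, with medians of 0.03 and 0.45. *Serpinf1*, which encodes PEDF, rose in both genotypes, from 160 ± 25.9 to 325 ± 45.6 TPM in control and from 140 ± 29.9 to 284 ± 80.3 TPM in knockout (log2 fold change 0.84 ± 0.14 and 0.98 ± 0.16, edgeR adjusted p = 0.00635 and 0.00563). *Fstl1*, a secreted glycoprotein, also rose in both (0.63 ± 0.14 and 0.93 ± 0.18, edgeR adjusted p = 0.0295 and 0.0150), and *Dpt*, dermatopontin, rose in knockout (0.84 ± 0.14, adjusted p = 0.00563). *Col1a1*, the main chain of type I collagen, fell in both (-0.90 ± 0.20 and -0.91 ± 0.23, edgeR adjusted p = 0.0300 and 0.0384). The most abundant stromal genes, the proteoglycan *Dcn* at 1804 TPM and *Gsn* at 1124 TPM, were not called.

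The relatives and partners of the members were mostly not called. Among 14 other genes of the *Ly6* family, 9 tested in control and 10 in knockout, *Gpihbp1*, which anchors lipoprotein lipase to capillaries, rose in both genotypes (0.81 ± 0.15 and 0.80 ± 0.17, edgeR adjusted p = 0.0120 and 0.0224), and *Ly6k* fell in control (-1.85 ± 0.36, adjusted p = 0.0150). *Ly6c1* and *Ly6e*, both at 224 TPM, were not called. Of the partners and paralogs of *Dpp4*, 10 of 13 tested, *Cav1*, caveolin, rose in both (0.82 ± 0.21 and 0.89 ± 0.20, edgeR adjusted p = 0.0510 and 0.0247), and *Fap*, its closest paralog, was not called at 59.7 TPM. None of the 4 tested relatives of *Cd34* was called, *Emcn* and *Podxl* included, by edgeR in either genotype. Of the CAP family relatives of *Pi16*, *Glipr1* fell in knockout (-0.70 ± 0.19, edgeR adjusted p = 0.0493).

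*Icam1* (ENSMUSG00000037405, chr9:20820404-20833241, plus strand) encodes an adhesion molecule bound by leukocyte integrins. It lay at 2.47, 4.63, 5.01, 6.48 and 4.22 TPM in control LFD, at 5.64, 7.69, 8.85, 3.10 and 5.20 TPM in knockout LFD, at 4.49, 3.93, 6.96, 4.08 and 6.05 TPM in control HFD and at 5.37, 1.57, 3.03, 4.99 and 6.35 TPM in knockout HFD. The knockout HFD libraries alone ran from the lowest level of all to above 6 TPM, and all groups overlapped. Of 14 markers of committed preadipocytes 13 were tested in control and 14 in knockout. In each genotype 3 rose and 1 fell with diet. *Hsd11b1*, which regenerates active glucocorticoid, fell most (-1.49 ± 0.19 and -1.68 ± 0.32, edgeR adjusted p = 0.00304 and 0.0120), and *Col4a1*, a basement membrane collagen, rose in both (0.78 ± 0.18 and 0.82 ± 0.26, adjusted p = 0.0314 and 0.0938). *Sparcl1* rose in knockout (0.81 ± 0.17, edgeR adjusted p = 0.0177), and so did *Pparg* (0.46 ± 0.13, adjusted p = 0.0653). *Fabp4* and *Lpl*, the most abundant of the list, were not called. Of the ligands and relatives of *Icam1*, the integrin chains *Itgax* and *Itgb2* rose in control (0.92 ± 0.16 and 0.55 ± 0.15, edgeR adjusted p = 0.00987 and 0.0573), and *Itgal* fell in knockout (-1.12 ± 0.32, adjusted p = 0.0647).

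*F3* (ENSMUSG00000028128, chr3:121426455-121437970, plus strand) encodes tissue factor, the receptor that starts the clotting cascade with factor VII. It lay at 52.7, 55.1, 47.2, 39.3 and 42.1 TPM in control LFD, at 45.3, 42.0, 47.3, 25.0 and 22.3 TPM in knockout LFD, at 43.5, 46.1, 73.7, 67.5 and 26.6 TPM in control HFD and at 42.3, 44.6, 30.3, 28.8 and 48.4 TPM in knockout HFD. Means were lower in knockout on both diets, the ranges overlapped, and over both diets the genotype difference was -0.47 ± 0.16 with an unadjusted p of 0.00693 and an edgeR adjusted p of 0.498. It was thus not called. Of 11 other markers of F3-positive regulatory cells, 2 rose and 1 fell with diet in control, and 1 rose in knockout. *Cygb*, cytoglobin, rose in both (0.55 ± 0.14 and 0.71 ± 0.19, edgeR adjusted p = 0.0420 and 0.0488), and *Cp*, ceruloplasmin, fell in control (-0.55 ± 0.13, adjusted p = 0.0345). Around tissue factor itself, 10 of 15 genes were tested, and *F7*, *F2*, *F2rl3* and *Serpinc1* were listed at 0 in 1 to 10 libraries. The inhibitor *Tfpi* and the cofactor *Pros1*, at 50.7 and 55.2 TPM, were not called.

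*Zfp423* (ENSMUSG00000045333, chr8:90185709-90483494, minus strand) lay at 16.4, 9.01, 6.82, 5.20 and 16.7 TPM in control LFD and at 14.2, 15.3, 15.3, 15.4 and 17.9 TPM in control HFD. Knockout libraries held 10.2, 9.43, 9.72, 10.1 and 12.1 TPM on LFD and 12.2, 10.2, 14.4, 9.84 and 17.4 TPM on HFD. Control LFD fell apart into 2 libraries above 16 TPM, replicates 1 and 5, and 3 below 10 TPM, and the groups overlapped in each comparison of diet or of genotype. The diet difference was 0.46 ± 0.25 in control (edgeR adjusted p = 0.332) and 0.36 ± 0.16 over both genotypes (adjusted p = 0.123, and 0.0605 by limma).

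A large part of this level came from a short transcript without a coding sequence. Zfp423-007 (386 bases in 4 exons) took between 21.9% and 62.1% of the *Zfp423* TPM of a library, with a mean of 45.3%, but 6.37% of its counts on average. Its first exon, at chr8:90472587-90472630 (mm9, minus strand), is shown because it overlaps no exon of another *Zfp423* transcript.
Zfp423-007: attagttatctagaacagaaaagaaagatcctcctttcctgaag
Coding transcripts alone gave means of 5.86 ± 2.37 TPM in control LFD, 5.34 ± 0.92 TPM in knockout LFD, 8.52 ± 0.53 TPM in control HFD and 6.57 ± 1.77 TPM in knockout HFD (SD, n = 5 each). The order of the group means was the same as with all transcripts, and at its coding level *Zfp423* was close to *Pdgfrb*. Of 19 partners of ZFP423 and factors of adipogenic commitment 18 were tested. In control *Wisp2*, whose product holds ZFP423 back, rose with diet (0.87 ± 0.27, edgeR adjusted p = 0.0908), and in knockout the paralog *Zfp521* fell (-0.52 ± 0.17, adjusted p = 0.0985). *Vegfa* and *Smad5*, at 96.6 and 94.3 TPM, were not called.

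**Figure D3:**
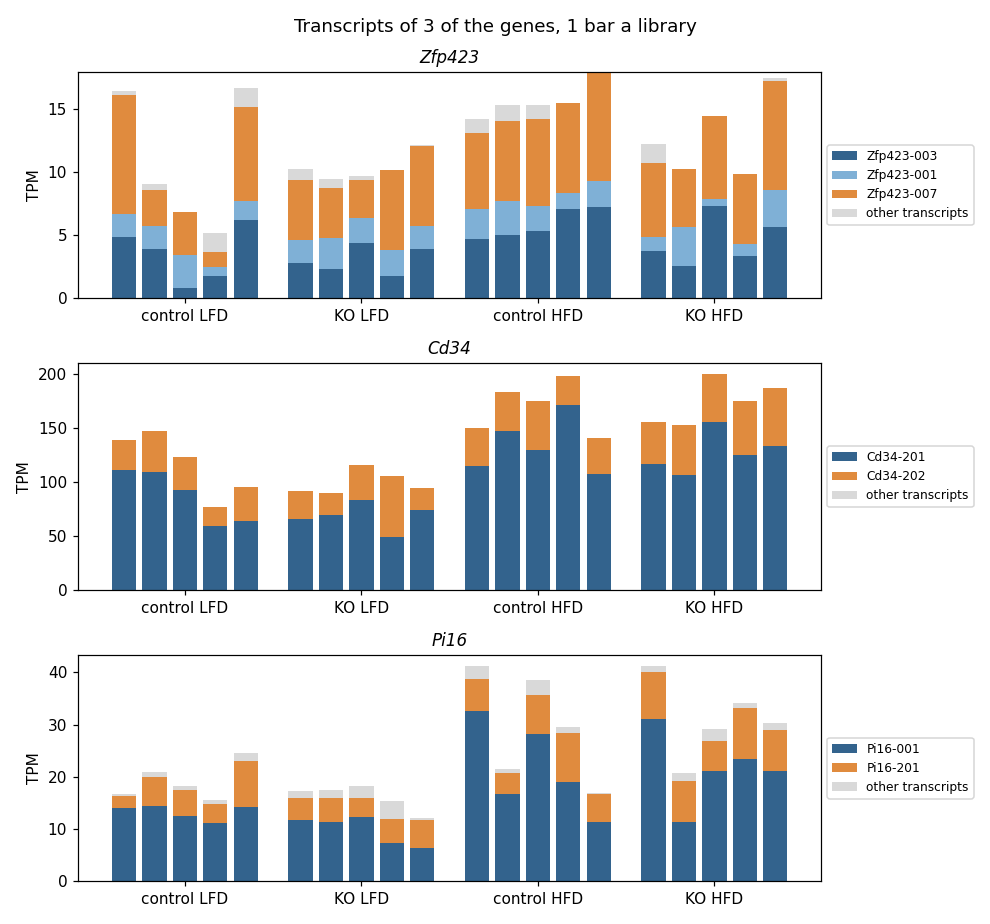
Stacked TPM of the transcripts of *Zfp423*, *Cd34* and *Pi16* (vertical axes, from 0), with 1 bar for each of the 20 libraries, ordered by group and replicate. The noncoding Zfp423-007 takes between 21.9% and 62.1% of the *Zfp423* bar, and the truncated Cd34-202 between 13.7% and 53.3% of the *Cd34* bar.

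*Pi16* also has a second large transcript. Pi16-201 has 1137 bases in 6 exons, against 2756 bases in 7 exons for Pi16-001. It took between 14.1% and 43.7% of the *Pi16* TPM and 12.4% of its counts on average. The remaining members rested mainly on 1 transcript, with mean shares of 93.9% for F3-201, 96.3% for Pdgfra-201 and 93.6% for Pdgfrb-001, although Pdgfrb-001 was listed at 0 in knockout HFD replicate 18, where the reads went to the other *Pdgfrb* transcript.

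Deletion of *Tmem120a* in adipocytes moved none of the 9 members past the test on either diet. On HFD 0 of 9 were called by edgeR, beside 0.00657% of 15228 genes. At an unadjusted p under 0.05 there was 1 of 9, beside 709 of the 15228 genes. On LFD 0 of 9 were called, beside 0.00636% of 15717 genes. At an unadjusted p under 0.05 there were 4 of 9, beside 803 of the 15717 genes. Over both diets the count was 0 of 9, beside 0.0385% of genes (0.0257% higher in knockout). There 1 of 9 had an unadjusted p under 0.05, beside 1159 of 15574 genes. The TPM ranges of the genotypes did not overlap for 1 of 9 members on HFD, *Pdgfra*, beside 0.69% of genes, and for 0 of 9 on LFD, beside 1.4%. DESeq2 and limma called 0 members in each of these 3 comparisons. Among all genes, DESeq2 called 99 on HFD, 17 on LFD and 32 over both diets, and limma called 3, 2 and 4. The 4 genes with an unadjusted p under 0.05 on LFD were all lower in knockout: *Pdgfra* (-0.39 ± 0.12), *Pi16* (-0.42 ± 0.14), *Ly6a* (-0.52 ± 0.20) and *F3* (-0.51 ± 0.20), with an edgeR adjusted p of 0.929 each. All 20 stromal genes also had a fitted value below 0 on LFD, with a median of -0.27 against -0.02 over all genes and no call, and on HFD their median was 0.01. Markers of other cells moved on LFD too, with no call: 13 of 14 adipocyte genes had a fitted value below 0 (median -0.25), and 12 of 13 lymphocyte genes had one above 0 (median 0.35). They also moved on HFD, with no call. There 14 of 14 muscle genes had a fitted value above 0 (median 5.24), and 14 of 14 endothelial genes had one below 0 (median -0.24). Of the 14 adipocyte genes, 11 lay below 0 and 3 above on HFD (median -0.21). The muscle sum moved beside these: it was 10.8 to 3897 TPM in control LFD, 15.9 to 1220 TPM in knockout LFD, 9.09 to 61.4 TPM in control HFD and 50.2 to 1676 TPM in knockout HFD. The part of these marker genes in the members' values was not tested. In all, 45 exact tests were run on the members (9 genes, 4 pairs of groups and the difference between genotype effects), and 8 had a p under 0.05, with no adjustment over these tests. They were *Pdgfra* in every comparison but diet in knockout, *Cd34* with diet in both genotypes, and *Pi16* and *Ly6a* with diet in knockout. Tests of the same gene share libraries.

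Several members varied with the summed levels of other cell types over the 20 libraries. Of 72 relations between the 9 genes and 8 marker sums, 9 passed a permutation test of Pearson's r after adjustment (adjusted p under 0.05). *Zfp423* varied with the sum of 13 mural genes (r = 0.793, adjusted permutation p = 0.00072, Spearman's rho = 0.728, adjusted p = 0.00936, and r = 0.639 without the 2 libraries farthest from the median). It also varied with the sum of 14 endothelial genes (r = 0.795, adjusted permutation p = 0.00072, rho = 0.665, adjusted p = 0.0174, r = 0.701 without 2 libraries). *Pdgfrb* varied with the endothelial sum as well (r = 0.626, adjusted permutation p = 0.0266), but its rho of 0.576 did not pass (adjusted p = 0.0629). With the mural and stromal sums *Pdgfrb* did not pass (r = 0.412 and 0.421, adjusted permutation p = 0.226 and 0.224). As deviations from the group means, its r was 0.723 with the endothelial, 0.539 with the mural and 0.654 with the stromal sum. The relation of *Zfp423* with the mural sum held within groups, where deviations from the group means had r = 0.726. The control LFD libraries with the least *Zfp423*, replicates 3 and 4, also had the lowest mural sums, 273 and 252 TPM. *Icam1* varied with 12 macrophage genes (r = 0.675, adjusted permutation p = 0.0142, rho = 0.687, adjusted p = 0.0138, r = 0.577 without 2 libraries, and 0.808 within groups). *Pi16* varied with the stromal sum (r = 0.828, adjusted permutation p = 0.00072, rho = 0.827, adjusted p = 0.00144, r = 0.811 without 2 libraries, and 0.577 within groups), and less with the adipocyte sum (r = 0.619, adjusted permutation p = 0.0330, and 0.156 within groups).

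*Cd34* varied with mural (r = 0.791, rho = 0.759), stromal (r = 0.760, rho = 0.762) and endothelial sums (r = 0.652, rho = 0.675), with adjusted permutation p of 0.00072, 0.00331 and 0.0199 for r and 0.00432, 0.00552 and 0.0174 for rho, and r was 0.790, 0.696 and 0.517 without 2 libraries. However, within groups they were 0.414, 0.283 and 0.375, so that much of the relation lay between the diets. The mural sum itself went from 401 ± 128 to 671 ± 80.5 TPM in control and from 369 ± 36.8 to 609 ± 126 TPM in knockout, and the endothelial sum from 257 ± 57.9 to 372 ± 60.3 TPM and from 270 ± 30.9 to 336 ± 81.2 TPM. The largest parts of the mural sum were *Rgs5*, *Acta2* and *Mcam*, with means of 231, 123 and 55.6 TPM. Of 13 mural genes 2 rose with diet in control, and 3 rose and 1 fell in knockout. Fitted values were above 0 for 8 of the 13 in control and for 7 in knockout. *Kcnj8* and *Mcam* rose in both (*Kcnj8* 0.80 ± 0.16 and 0.87 ± 0.23, edgeR adjusted p = 0.0150 and 0.0497), and *Rgs5*, a pericyte gene and the most abundant of the list, rose in knockout (1.02 ± 0.23, adjusted p = 0.0267). Of 14 endothelial genes 4 rose in control, and 1 rose and 1 fell in knockout. *Pdgfra* had no relation that passed with any of the 8 sums. Its largest r, 0.542, was with the epithelial sum, and it fell to 0.242 without 2 libraries. Within groups, however, the r of *Pdgfra* was 0.606 with the epithelial sum and 0.621 with the stromal sum. Over the 20 libraries its r with the stromal sum was 0.0935. The within-group values were not tested. Beside the rise of *Cd34* and *Pi16* in knockout, 12 of 13 lymphocyte genes had a fitted value below 0 (median -0.51), of which *Cd3e* was called, and the 14 adipocyte genes had a median of 0.43 with 1 called higher. The part of vessel, stromal, lymphocyte and adipocyte genes in that rise was not tested.

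**Figure D4:**
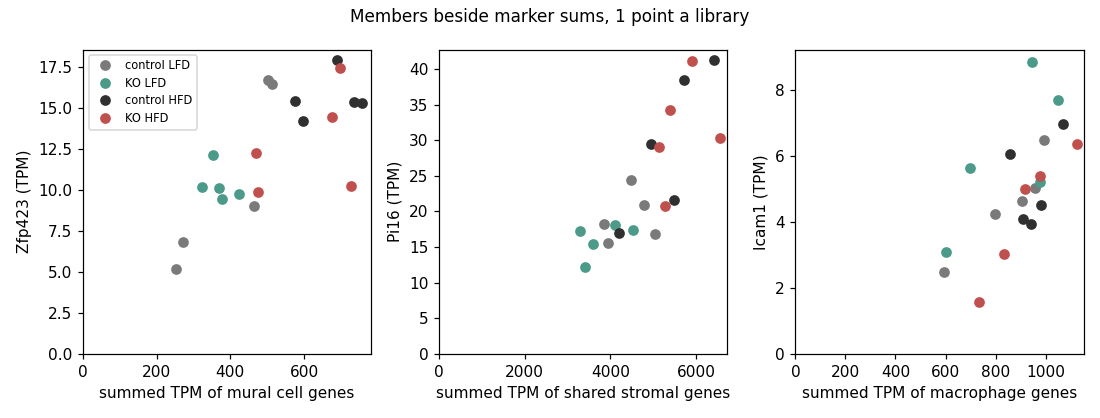
*Zfp423* against the sum of 13 mural genes, *Pi16* against the sum of 20 stromal genes and *Icam1* against the sum of 12 macrophage genes, all in TPM, with 1 point for each library and both axes from 0. The points rise together in each panel, and in the first the control LFD libraries are spread from the bottom to near the top.

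The members did not follow one another as a set. Over 20 libraries the highest correlation of log2(TPM + 1) between 2 members was 0.68, for *Pi16* with *Cd34*, followed by 0.62 for *Ly6a* with *Cd34* and 0.55 for *Zfp423* with *Cd34*. *Pi16* with *Dpp4*, both markers of interstitial progenitors, gave -0.04. These values describe libraries that share diet, genotype and tissue content. Among 13976 genes averaging 1 TPM or more, the genes most like each member were *6720401G13Rik* (r = 0.789), *Akr1cl* and *Fut11* for *Pdgfra*, *Col5a1* (0.896), *Neurl1b* and *Adcy4* for *Pdgfrb*, and *Gm11870* (0.820), *Skint3* and *Zfp709* for *Dpp4*. For *Pi16* they were *Osbpl2* (0.881), *Galntl1* and *Gstt1*, for *Ly6a* *Ifitm3* (0.781), *F13a1* and *1810037I17Rik*, and for *Cd34* *Rgs7bp* (0.926), *Fstl1* and *Dnaja2*. *Icam1* was nearest to *Il2rb* (0.932), *Ccl5* and *Fam40a*, *F3* to *Gpr137b-ps* (0.811), *Rasgrf1* and *Hspa1b*, and *Zfp423* to *Hipk3* (0.930), *Utrn* and *Aplp2*. No member was among the 3 genes nearest to another.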

How the data were processed

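Total RNA of iWAT was made into stranded libraries. The authors estimated counts and TPM per transcript with Salmon on Ensembl transcripts of mm9, and the deposited estimated counts and TPM values were used here; per the labels the tools were STAR 2.5.3 and Salmon 0.13.1. Of 96533 transcripts, 94334 were summed per gene by GENCODE vM1; the others held between 0.377% and 0.581% of the counts.

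Rounded gene sums were tested with edgeR 4.0.16 (quasi-likelihood, TMM, Benjamini-Hochberg over all genes, adjusted p under 0.1) for genes averaging 0.5 TPM or more, and the fit was tested on simulated data. Single members were tested by exact permutation of log2(TPM + 1). Alternatives were RLE scaling, no filter, DESeq2 1.42.0, transcript length offsets, limma 3.58.1, a joint fit of 20 libraries and leaving out each library. DESeq2 with length offsets, diet over both genotypes and coding transcripts alone were added after the data were seen. Marker correlations used 100000 permutations. Members, lists and the rule for named genes (all members, the 2 most abundant genes and up to 3 called genes of a list, the 3 nearest genes by r, transcripts of at least 10%) were chosen with earlier results of these data known. *Pparg* and *Col1a1* were named in addition to that rule. The labels number the samples of a group without naming the mice, and p-values measure the spread between these samples. A gene of the lists is not reported here.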

Additional observations from a re-analysis of the deposited data

Results flagged for a closer look

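The *Pdgfra* genotype effect differed between diets by the exact permutation test of this gene alone: it was higher on HFD than on LFD by 0.617 on the log2(TPM + 1) scale (p = 0.000378). Across all genes DESeq2 called the difference (adjusted p = 0.0207), while edgeR (adjusted p = 0.976) and limma did not. All 5 knockout libraries were above the controls on HFD.

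In all, 3 values lay far from the rest of their group by Dixon's test, of 36 groups checked, where chance gives about 1 in 20. *Pdgfra* was at 19.7 TPM in control HFD replicate 15, against 28.2 to 30.4 TPM in the other 4. *Ly6a* was at 229 TPM in the same library, against 321 to 352 TPM. *Zfp423* was at 12.1 TPM in knockout LFD replicate 10, against 9.43 to 10.2 TPM.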

How the results depend on the processing

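No paired analysis was possible because the groups share no replicate numbers.

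The counts of called members kept within 1.5 times of their value in 49 of 53 alternative settings. The exceptions were diet in control, with 2 members called by limma with a pseudocount of 1 and 2 with 0.1, and genotype by diet, with 1 member called by DESeq2 and 1 by DESeq2 with length offsets (added after the data were seen). For diet in knockout limma called 3 members and edgeR 2, which lies at the limit of 1.5 times and counts as kept. A count of 0 could be kept only by staying at 0. With 1 library left out, the count for diet in control lay between 1 and 2, and it was 2 without control HFD replicate 15. Values near 0 changed sign. *Pdgfra* with diet in knockout was -0.0005074 with RLE, -0.0005422 with DESeq2, -0.0319 with length offsets and -0.02603 with both, and -0.0329 to 0.0459 with 1 library left out. *Pdgfra* with genotype over both diets was 0.01717 and 0.01841 by limma with the pseudocounts of 1 and 0.1, and -0.1004 to 0.01099 with 1 library left out. The genotype difference on HFD ranged from -0.107 to 0.237 for *Pi16* and from -0.0201 to 0.119 for *Cd34*. The causes were not tested. The fall of *Pdgfra* in control and the rises of *Pi16* and *Cd34* in knockout passed with each library left out. Of the 32 other pairs of member and comparison, 19 changed sign in some setting and 0 were called in any. Each member had at least 316 estimated counts in every library, and a comparison of 5 against 5 libraries cannot give an exact p under 0.00794.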
